A study of Mus musculus with 4 samples.

Results

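The Wnt pathway and its secreted inhibitors were examined in brown adipose tissue (BAT) of the mouse, in its stromal vascular fraction (SVF), through 9 genes listed by symbol, namely Wnt2, Sfrp1, Sfrp2, Sfrp4, Sfrp5, Dkk2, Dkk3, Wif1 and Axin2. They are 9 of the 32285 genes in the deposited single-cell count files. The list was drawn up with earlier results of these data known, but its rule used no measured value. Single-cell RNA sequencing was performed on 4 libraries, all labelled as strain C57BL6/J. WT mice were wild type and aged 10 weeks. The db/db mice, labelled DB_DB, were aged 8 weeks or 16 weeks (8w and 16w in the figures), and by the study's methods they were B6.BKS(D)-Leprdb/J animals, which carry a leptin receptor mutation in every cell and become obese and diabetic on normal diet. The HFD mice had no mutation and were labelled as 10 weeks old, whereas by the methods a high-fat diet was begun at 10 weeks of age and fed for 10 weeks. No lean library was matched in age to 16-week db/db. Each library was the SVF of 3 pooled mice, that is the immune, stromal and vascular cells left once floating adipocytes are removed, so mature adipocytes were not measured.

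Wnt proteins are secreted lipid-modified ligands that bind Frizzled receptors, with LRP5 or LRP6 as co-receptors, and in the canonical branch keep β-catenin from being degraded so that it can act with TCF/LEF factors on target genes. In adipose tissue Wnt signalling is known as a brake on the differentiation of preadipocytes. Secreted Frizzled-related proteins (the Sfrp genes) and WIF1 bind Wnt proteins outside the cell, Dickkopf proteins (the Dkk genes) act mostly at the LRP co-receptors, and AXIN2 is both part of the β-catenin destruction complex and a common target gene of the pathway.

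The study asked how the cells of BAT differ between lean and obese mice. As each group was 1 library, no difference was tested. All 95% intervals are exact (Poisson for levels, conditional binomial for ratios, Clopper-Pearson for shares) and cover counting error only, not the spread between mice or preparations. Levels are in CPM, the unique molecular identifiers (UMIs) of a gene per 1000000 UMIs of the cells summed. Ratios are log2 ratios of CPM against WT. A gene was counted as higher or lower when this ratio was at least 2-fold.

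Quality filters left 5944 (WT), 11648 (8-week db/db), 5833 (16-week db/db) and 5462 (HFD) cells. Of these, 4399, 7035, 1186 and 1674 were stromal-like by fixed marker lists, with 35518373, 29618919, 4474875 and 9520113 UMIs and a median depth of 6924, 2969, 2832 and 5157 UMIs. The 6 stromal markers, Pdgfra among them at 469 to 719 CPM, summed to 39480 to 51150 CPM in these cells, while the immune list summed to 69.6 to 554 CPM, the endothelial list to 3.69 to 339 CPM and the mural list to 10.6 to 167 CPM, the lowest in WT for all 3. The 16-week db/db library stood apart. It had Xist at 207 CPM, against 0.187 to 0.689 CPM in the others, and 4 genes of the Y chromosome at 17.7 CPM, against 165 to 188 CPM, although the study describes male mice only. Its median mitochondrial share in stromal-like cells was 0.424%, against 3.62% to 9.63%. The ratios of 8-week db/db and HFD to WT do not use the counts of this library. It does enter the filter of a mean of at least 5 CPM over the 4 libraries, which decides the genes counted. With a filter that left it out, 6 members were tested as well. HFD was the other extreme in quality, as 31.3% of its barcodes passed the filters, against 63.6% to 89.5% in the others, and its median mitochondrial share in stromal-like cells (9.63%) and share of mixed barcodes (20.5%) were the highest of the 4. With no mitochondrial limit or a limit of 10%, the count of members at least 2-fold lower in HFD was 4, as with the limit used. This concerns that limit only, and the part of barcode loss and mixed barcodes in the HFD values was not tested. Between 7 and 25 barcodes were shared by a pair of libraries, and barcodes with mixed lineage markers made up 3.74% to 20.5% of cells and were kept out of the stromal gate. The counts of Lepr at its 3′ end (25, 16, 1 and 8 UMIs) do not check the genotype.

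Sequences upstream of the start are shown for Sfrp2 and Dkk2, the 2 members on chromosome 3, because both were at least 2-fold lower in 16-week db/db and in HFD. Each is the 250 bases before the annotated start from the RefSeq promoter table, build GRCm38.p6, plus strand, in which 6 of the 9 members were found (Wnt2, Sfrp2, Sfrp5, Dkk2, Wif1 and Axin2). The windows are chr3:83766071-83766320 for Sfrp2 and chr3:132085042-132085291 for Dkk2. Capitals mark matches on either strand to TATAAA, the letters of a TATA box, or to CTTTGA, the core letters bound by TCF/LEF factors, which do not overlap each other here.
Sfrp2: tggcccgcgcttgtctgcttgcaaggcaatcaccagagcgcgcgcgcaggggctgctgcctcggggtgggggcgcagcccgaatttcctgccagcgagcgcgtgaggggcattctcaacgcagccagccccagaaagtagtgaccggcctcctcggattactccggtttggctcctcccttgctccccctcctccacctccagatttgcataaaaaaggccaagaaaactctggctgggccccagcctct
Dkk2: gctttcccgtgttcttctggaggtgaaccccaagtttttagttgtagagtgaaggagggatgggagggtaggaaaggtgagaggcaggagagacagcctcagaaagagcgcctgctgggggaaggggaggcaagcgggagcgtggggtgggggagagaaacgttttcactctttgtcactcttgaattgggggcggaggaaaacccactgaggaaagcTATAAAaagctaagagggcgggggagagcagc
The Dkk2 window held 1 match to TATAAA, which began 32 bases before the start, and the Sfrp2 window held none. Of 32851 windows of the same length in the table, 12.4% held TATAAA and 13.8% held CTTTGA, which neither window of these 2 members held. The Sfrp2 window was 63.6% G and C and that of Dkk2 55.6%, against a median of 52.4% over the table. In GRCm38 the members lie on chromosomes 6 (Wnt2, 17988940 to 18030585), 8 (Sfrp1, 23411502 to 23449632), 3 (Sfrp2, 83766321 to 83774316, and Dkk2, 132085292 to 132180304), 13 (Sfrp4, 19623104 to 19632994), 19 (Sfrp5, 42197971 to 42202252), 7 (Dkk3, 112116017 to 112159057), 10 (Wif1, 121033960 to 121100650) and 11 (Axin2, 108920349 to 108950783), and all are annotated as protein-coding.

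The ligand and the inhibitors were transcripts of stromal-like cells. Of all UMIs in cells that passed the filters, stromal-like cells held between 84.1% (Dkk2 in HFD, 53 of 63 UMIs, 72.7% to 92.1%) and 100% (Wnt2 in 16-week db/db, 12 of 12 UMIs, 73.5% to 100%) for Wnt2, Sfrp1, Sfrp2, Sfrp4, Dkk2 and Dkk3. In macrophage-like cells, which should lack these genes, Sfrp2 was at 16.2 CPM in WT, 3.38 in 8-week db/db, 0.125 in 16-week db/db and 0.794 in HFD, and the other 5 were at 2.65 CPM or less. The highest of these values was in WT, where stromal-like cells also held the most Sfrp2, and it was far below the level there. Endothelial-like cells, of which 16-week db/db had 1027 and HFD 792, held 0 UMIs of Sfrp2 in both, with exact upper limits of 2.65 and 0.933 CPM.

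**Figure D1:**
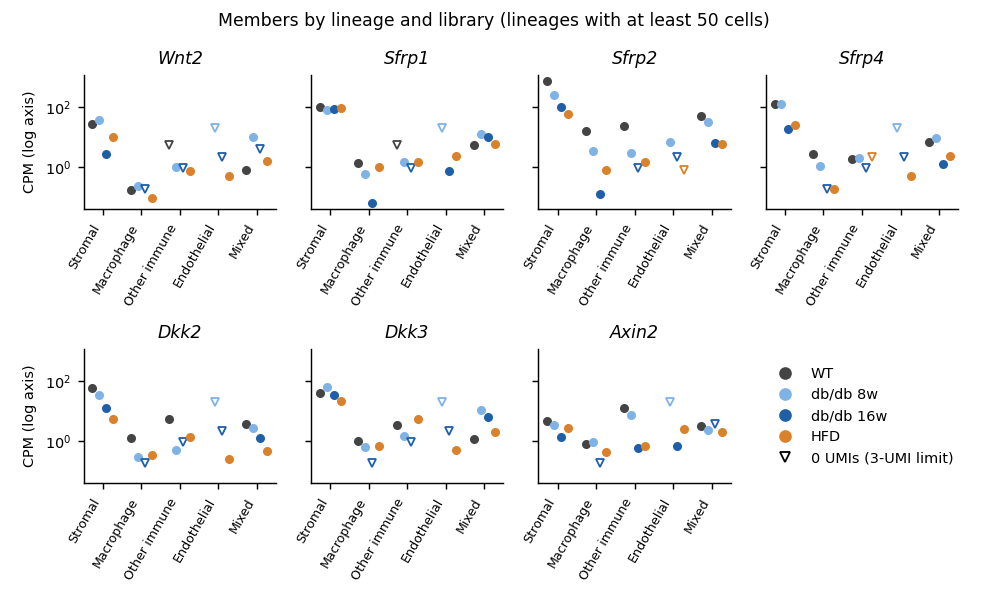
Level of 7 members (CPM, log axis) in stromal-like, macrophage-like, other immune, endothelial-like and mixed cells, 1 point per library with at least 50 such cells, with open triangles at the level of 3 UMIs where none was found. For all 7 members the points of stromal-like cells lie above those of macrophage-like cells in every library, for Sfrp2 in WT at 768 against 16.2 CPM.

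Axin2 was less confined to stromal-like cells. It was detected at 4.79 CPM (170 UMIs) in stromal-like cells of WT, 3.41 (101 UMIs) in 8-week db/db, 1.34 (6 UMIs) in 16-week db/db and 2.73 (26 UMIs) in HFD, with the 95% intervals of 16-week db/db (0.492 to 2.92) and HFD (1.78 to 4.00) overlapping. Its UMIs were spread over more lineages, with 89.0% of them in stromal-like cells in WT, 70.6% in 8-week db/db, 35.3% in 16-week db/db (6 of 17 UMIs, 14.2% to 61.7%) and 47.3% in HFD (26 of 55 UMIs, 33.7% to 61.2%). Stromal-like cells themselves were 74.0%, 60.4%, 20.3% and 30.65% of the cells that passed the filters, so both shares had the same order. In HFD, endothelial-like cells held Axin2 at 2.53 CPM (10 UMIs). Because its mean over the 4 libraries stayed under 5 CPM, Axin2 entered no count of higher or lower members. Its log2 ratio to WT was -0.49 (-0.86 to -0.12) in 8-week db/db, -1.84 (-3.30 to -0.68) in 16-week db/db and -0.81 (-1.46 to -0.21) in HFD. All 3 intervals lay below 0 for the sums over all stromal-like cells, and the value of 16-week db/db rests on 6 UMIs. Some other feedback and target genes of the pathway list given below, also under the filter, were not lower in all 3 obese libraries. Nkd1 was at 2.11, 4.86, 5.36 and 5.88 CPM in WT, 8-week db/db, 16-week db/db and HFD. Ccn4 was at 0.732, 3.75, 4.47 and 6.51 CPM and Nkd2 at 3.01, 2.94, 1.79 and 5.04 CPM. These genes were named after their values were seen.

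Most of the measurable members were lower in the stromal-like cells of the older db/db and of the HFD mice. Of 9 members, 6 passed the filter of a mean of 5 CPM, and none of these 6 was at least 2-fold higher in any library. In 8-week db/db 1 was at least 2-fold lower (Sfrp2), against 2.37% of all 10292 genes tested. In 16-week db/db 4 were lower (Wnt2, Sfrp2, Sfrp4 and Dkk2), against 14.5% of 10291 genes, and in HFD the 4 named for 16-week db/db were again lower, against 6.74% of 10292 genes. The shares of all genes at least 2-fold higher were 6.32%, 12.5% and 10.7%. The median log2 ratio of the 6 members was -0.15 in 8-week db/db, -2.48 in 16-week db/db and -1.81 in HFD, while the median of all genes tested was 0.03, -0.03 and 0.08. The 3 comparisons share the WT library, so a value peculiar to WT enters each of them. When the stromal subsets of each library were instead weighted as in WT, 1 member was at least 2-fold higher (Wnt2) and 2 lower (Sfrp2 and Dkk2) in 8-week db/db, 2 were higher (Wnt2 and Dkk3) and 1 lower (Sfrp2) in 16-week db/db, and 2 were lower (Sfrp2 and Dkk2) in HFD. The share of all genes past 2-fold was not computed under this weighting, so these counts have no background beside them. The weighting also scales up thin subsets of 16-week db/db and HFD, down to 1 cell each. Fewer cells of a stromal type and less RNA per cell cannot be told apart in the sums over all stromal-like cells, and the makeup of the stromal cells differed greatly, as set out with the subsets.

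**Figure D2:**
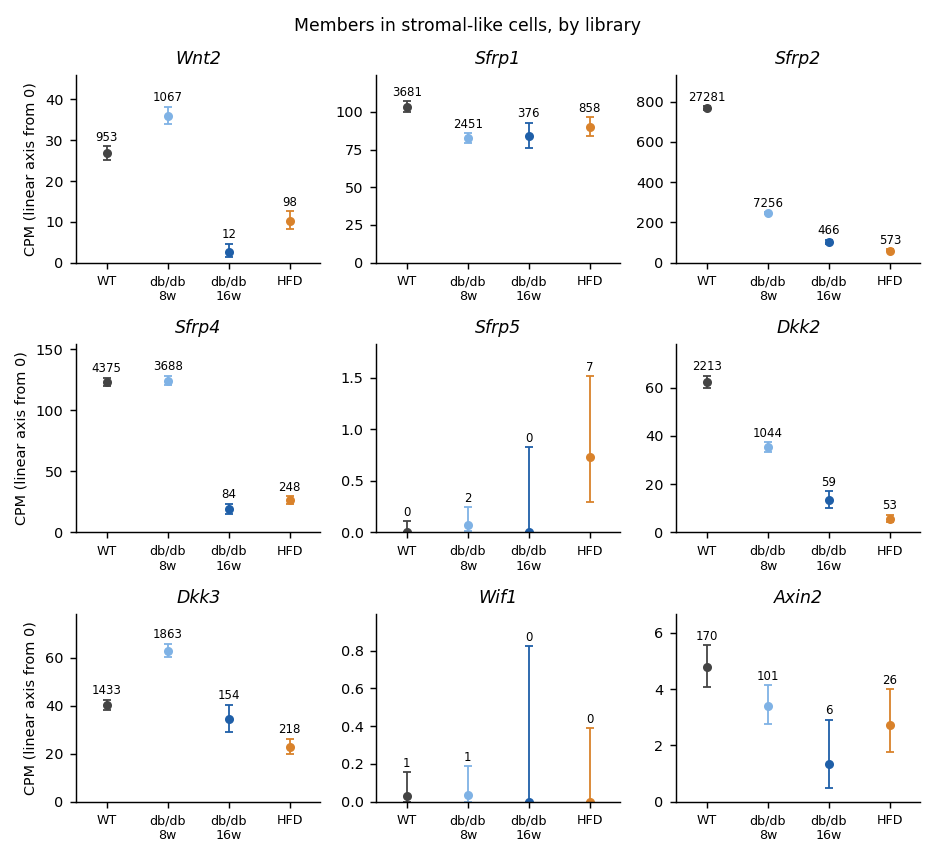
Level of the 9 members in stromal-like cells (CPM, linear axis from 0) by library, with exact Poisson 95% intervals and the number of UMIs above each point. Sfrp2 and Dkk2 were highest in WT, Wnt2 and Dkk3 in 8-week db/db, and Sfrp5 and Wif1 were at 7 UMIs or fewer. Sfrp1 differed little between libraries in these sums over all stromal-like cells.

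Wnt2, a ligand of the canonical branch, was at 26.8 CPM (25.2 to 28.6) in WT, 36.0 CPM (33.9 to 38.2) in 8-week db/db, 2.68 CPM (1.39 to 4.68, 12 UMIs) in 16-week db/db and 10.3 CPM (8.36 to 12.6) in HFD. The order was 8-week db/db, WT, HFD and 16-week db/db, and no neighbouring intervals overlapped. The log2 ratio was 0.42 (0.30 to 0.55) in 8-week db/db, -3.32 (-4.28 to -2.51) in 16-week db/db and -1.38 (-1.70 to -1.08) in HFD. To compare detection at equal depth, 2000 UMIs were drawn from each cell and 454, 2759, 376 and 31 shallower stromal-like cells of the libraries in the same order were dropped. A Wnt2 UMI was found in 4.56%, 6.38%, 0.741% and 2.50% of the remaining cells. In macrophage-like cells thinned in the same way it was found in 0 cells of each library, with an exact upper limit of 0.535% in WT.

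Sfrp1, the founding member of the Frizzled-related inhibitors, differed least in sums over all stromal-like cells. In 8-week db/db it differed more within most subsets, as given below. Its level was 104 CPM (100.3 to 107) in WT, 82.8 CPM (79.5 to 86.1) in 8-week db/db, 84.0 CPM (75.8 to 93.0) in 16-week db/db and 90.1 CPM (84.2 to 96.4) in HFD. WT lay above the other 3 libraries, whose intervals overlapped one another. The largest difference from WT was -0.33 (-0.40 to -0.25) in 8-week db/db.

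Sfrp2 was highest in WT and lower in each obese library. It was at 768 CPM (759 to 777) in WT, 245 CPM (239 to 251) in 8-week db/db, 104 CPM (94.9 to 114) in 16-week db/db and 60.2 CPM (55.4 to 65.3) in HFD. No intervals overlapped. Sfrp2, whose product is also known to act on matrix assembly, was thus 3.14-fold lower in 8-week db/db (log2 ratio -1.65, -1.69 to -1.61), 7.38-fold lower in 16-week db/db (-2.88, -3.02 to -2.75) and 12.8-fold lower in HFD (-3.67, -3.80 to -3.55). At 2000 UMIs a cell, 59.4% (57.9% to 61.0%) of stromal-like cells in WT held a Sfrp2 UMI, 27.3% (25.9% to 28.6%) in 8-week db/db, 15.1% (12.7% to 17.7%) in 16-week db/db and 8.03% (6.76% to 9.46%) in HFD. Without thinning the shares were 76.3%, 32.4%, 21.0% and 13.98%. In macrophage-like cells thinned likewise, 3.78%, 0.698%, 0% (0 of 1884 cells, exact upper limit 0.196%) and 0.0666% held one.

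Sfrp4, summed over all stromal-like cells, was lower in 16-week db/db and HFD but not in 8-week db/db. Its level was 123 CPM (120 to 127) in WT and 125 CPM (121 to 129) in 8-week db/db, with overlapping intervals, and 18.8 CPM (14.97 to 23.2) in 16-week db/db and 26.1 CPM (22.9 to 29.5) in HFD. The latter intervals overlapped too. The log2 ratio was 0.02 (-0.05 to 0.08), -2.71 (-3.04 to -2.40) and -2.24 (-2.43 to -2.06) in 8-week db/db, 16-week db/db and HFD. With the subsets weighted as in WT the ratios were 0.10, 0.024 and -0.66, so that the db/db libraries no longer stood apart, where the weighting of 16-week db/db rests on 18 Pi16/Dpp4 cells.

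Sfrp5, known as an adipokine that binds WNT5A, was nearly absent from these cells, with 0, 2, 0 and 7 UMIs in stromal-like cells of WT, 8-week db/db, 16-week db/db and HFD. The exact upper limit of a count of 0 was 0.104 CPM in WT and 0.824 CPM in 16-week db/db. The level of HFD was 0.735 CPM (0.296 to 1.52), and the exact interval of its log2 ratio to WT began at 2.43. The adipocyte marker list, of 5 genes, summed to 3.21, 10.2, 4.02 and 66.0 CPM in the stromal-like cells of the libraries in the same order, with 1 of its genes at 0 in 16-week db/db and none in the others. It was thus highest in HFD as well, and its part in the Sfrp5 value was not tested. HFD held 22 Sfrp5 UMIs in all, of which 9 were in mixed barcodes and 3 in 2 Schwann-like cells.

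Dkk2 and Dkk3, the Dickkopf members, differed from each other. Dkk2, whose product binds LRP5 and LRP6, was at 62.3 CPM (59.7 to 65.0) in WT, 35.3 CPM (33.1 to 37.4) in 8-week db/db, 13.2 CPM (10.0 to 17.0) in 16-week db/db and 5.57 CPM (4.17 to 7.28) in HFD. The 4 intervals did not overlap. The log2 ratio was -0.82 (-0.93 to -0.71), -2.24 (-2.64 to -1.87) and -3.48 (-3.91 to -3.09). Dkk3, a divergent Dickkopf protein that does not act through LRP5 and LRP6 as the others do, was at 40.4 CPM (38.3 to 42.5) in WT, 62.9 CPM (60.1 to 65.8) in 8-week db/db, 34.4 CPM (29.2 to 40.3) in 16-week db/db and 22.9 CPM (19.96 to 26.1) in HFD. The intervals of WT and 16-week db/db overlapped. Its log2 ratio was 0.64 (0.54 to 0.74) in 8-week db/db, -0.23 (-0.48 to 0.01) in 16-week db/db and -0.82 (-1.03 to -0.61) in HFD.

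Wif1, the Wnt inhibitory factor, was at 1 UMI in WT, 1 in 8-week db/db and 0 in 16-week db/db and HFD, over all cells that passed the filters. The exact upper limit of a count of 0 in stromal-like cells was 0.824 CPM in 16-week db/db and 0.3875 CPM in HFD. At this depth no difference in Wif1 was detectable.

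**Figure D3:**
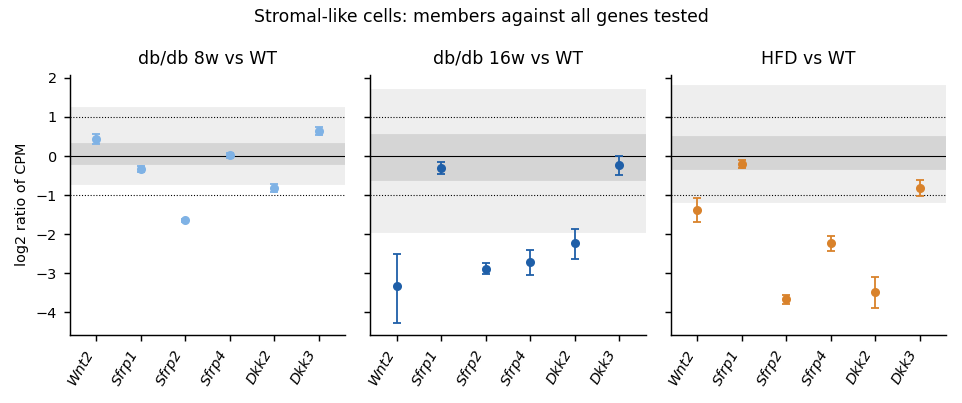
Log2 ratio of CPM in stromal-like cells against WT for the 6 members that passed the filter, with exact 95% intervals. The dark and pale bands hold the middle 50% and 90% of all genes tested, and dotted lines mark 2-fold. Wnt2, Sfrp2, Sfrp4 and Dkk2 lie below the pale band in 16-week db/db and HFD, where that band begins at -1.94 and -1.19.

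Stromal-like cells were then divided by fixed markers into Pi16/Dpp4 cells, the progenitor-like fibroblasts, Col15a1/Col4a1 cells, the preadipocyte-like ones, Cilp/Eln, Has1/Ptx3 and Meg3/Nova1 cells, and cells left unassigned. Pi16/Dpp4 cells were 36.6% (35.1% to 38.0%) of stromal-like cells in WT, 15.7% (14.8% to 16.5%) in 8-week db/db, 1.52% (18 cells, 0.902% to 2.39%) in 16-week db/db and 8.18% (6.91% to 9.60%) in HFD. Col15a1/Col4a1 cells were 9.64% (8.78% to 10.6%), 34.7% (33.5% to 35.8%), 82.6% (80.3% to 84.7%) and 71.2% (69.0% to 73.4%). The gate used the UMIs of these markers, and Col4a1 itself was at 801, 2265, 3049 and 2994 CPM over all stromal-like cells, so a shift of cells between subsets and a shift of marker levels within cells cannot be told apart. The gate also needed at least 3 marker UMIs, which shallow cells reach less readily. Median depth in the same order was 7978.5, 4323, 1860.5 and 4257 UMIs in Pi16/Dpp4 cells. It was 8070, 4282, 3171 and 5389.5 in Col15a1/Col4a1 cells and 6860.5, 1389, 1428 and 4862.5 in unassigned cells. The part of depth in these shares was not tested.

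Wnt2 was highest in the Pi16/Dpp4 cells of each library. There it was at 41.7 CPM (38.4 to 45.2) in WT, 98.2 CPM (89.99 to 107) in 8-week db/db, 125 CPM (40.5 to 291, 5 UMIs) in 16-week db/db and 87.6 CPM (65.8 to 114) in HFD. In Col15a1/Col4a1 cells it was at 3.20 CPM (12 UMIs), 10.5 CPM, 0.248 CPM (1 UMI) and 2.68 CPM (19 UMIs). Within Pi16/Dpp4 cells 8-week db/db and HFD lay above WT, by 1.24 (1.06 to 1.41) on the log2 scale in 8-week db/db and by 1.07 (0.64 to 1.48) in HFD, while over all stromal-like cells HFD lay below WT. When the subsets of each library were weighted by the shares of UMIs they had in WT, the Wnt2 ratio was 1.13 in 8-week db/db, 1.12 in 16-week db/db and 0.60 in HFD, of which that of 16-week db/db rests on 18 Pi16/Dpp4 cells.

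Sfrp2 was also highest in Pi16/Dpp4 cells and low in Col15a1/Col4a1 cells, but it was lower in obesity within subsets as well. Pi16/Dpp4 cells held 991 CPM (975 to 1008) in WT, 517 CPM (498 to 537) in 8-week db/db, 424 CPM (247 to 679, 17 UMIs) in 16-week db/db and 363 CPM (317 to 414) in HFD. The log2 ratio within them was -0.94 (-0.998 to -0.88) in 8-week db/db and -1.45 (-1.65 to -1.26) in HFD. Col15a1/Col4a1 cells held 75.3, 60.3, 86.9 and 20.6 CPM, so that 16-week db/db did not lie below WT there (0.21, -0.02 to 0.44) and HFD did (-1.87, -2.17 to -1.58). In unassigned cells, a group of at least 143 cells in each library, the level was 748, 307, 293 and 109.7 CPM. Weighted as in WT, the Sfrp2 ratio was -1.02, -1.33 and -1.94 in 8-week db/db, 16-week db/db and HFD. Thin subsets of 16-week db/db and HFD were scaled up for these values.

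In WT, 8-week db/db and HFD, Sfrp1 and Dkk2 were both highest in the Cilp/Eln cells. Sfrp1 was there at 984 CPM (922 to 1048) in WT, 481 CPM (448 to 515) in 8-week db/db, 175 CPM (13 UMIs) in 16-week db/db and 290.2 CPM (44 UMIs) in HFD, from 104, 375, 26 and 36 cells. In Pi16/Dpp4 cells it was at 56.5 CPM in WT and 27.7 CPM in 8-week db/db. Dkk2 in Cilp/Eln cells was at 414 CPM (375 to 457) in WT and 105 CPM (89.9 to 122) in 8-week db/db, with 0 UMIs in 16-week db/db, an exact upper limit of 49.8 CPM, and 33.0 CPM (5 UMIs) in HFD. Within these cells both were lower in 8-week db/db, by log2 ratios of -1.03 (-1.17 to -0.90) for Sfrp1 and -1.98 (-2.25 to -1.72) for Dkk2. Sfrp1 was lower in 8-week db/db in Pi16/Dpp4 (-1.03), Col15a1/Col4a1 (-0.94), Meg3/Nova1 (-1.70) and unassigned cells (-0.15) as well, while over all stromal-like cells the ratio was -0.33 and Cilp/Eln cells made up 2.36% of cells in WT and 5.33% in 8-week db/db. In Col15a1/Col4a1 cells Dkk2 went from 50.2 CPM in WT to 33.5, 10.7 and 2.54 CPM in 8-week db/db, 16-week db/db and HFD, of which the HFD value rests on 18 UMIs.

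Sfrp4 was far lower in the Col15a1/Col4a1 cells of the obese libraries. These cells held 174 CPM (161 to 188) in WT, 55.4 CPM (51.4 to 59.6) in 8-week db/db, 5.21 CPM (3.23 to 7.97, 21 UMIs) in 16-week db/db and 9.17 CPM (7.08 to 11.7, 65 UMIs) in HFD, that is 3.14-fold, 33.3-fold and 18.9-fold lower. In Pi16/Dpp4 cells the order was another one, with 97.6 CPM in WT, 49.6 in 8-week db/db, 175 (70.2 to 360, 7 UMIs) in 16-week db/db and 130 (103 to 161) in HFD. In Cilp/Eln cells Sfrp4 was at 495 CPM in WT and 416 CPM in 8-week db/db. The near equality of WT and 8-week db/db over all stromal-like cells thus joined lower levels in Pi16/Dpp4 (-0.98), Col15a1/Col4a1 (-1.65) and Cilp/Eln cells (-0.25) with higher levels in Meg3/Nova1 (1.34) and unassigned cells (0.79).

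Dkk3 was spread over the subsets, at 30.1 to 78.9 CPM in WT for Pi16/Dpp4, Col15a1/Col4a1, Cilp/Eln, Meg3/Nova1 and unassigned cells. In 8-week db/db it was higher than WT in all 5 of these, from 0.32 (0.11 to 0.52) in Pi16/Dpp4 cells to 1.16 (0.79 to 1.52) in Meg3/Nova1 cells on the log2 scale. In HFD it lay below WT in Col15a1/Col4a1 cells (-0.54, -0.90 to -0.17), and the interval in Pi16/Dpp4 cells included 0 (-0.60, -1.36 to 0.07). Axin2 was at 5.42 CPM in Pi16/Dpp4 cells of WT and 5.99 CPM in those of 8-week db/db, whose log2 ratio of 0.14 (-0.50 to 0.76) was not distinguishable from 0 at this depth. In Col15a1/Col4a1 cells its interval included 0 in 8-week db/db (-0.351, -1.443 to 0.86), 16-week db/db (-1.426, -3.553 to 0.368) and HFD (-0.335, -1.585 to 0.981). The same held in unassigned cells, with log2 ratios of -0.003, 0.719 and 0.329 in the same order.

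**Figure D4:**
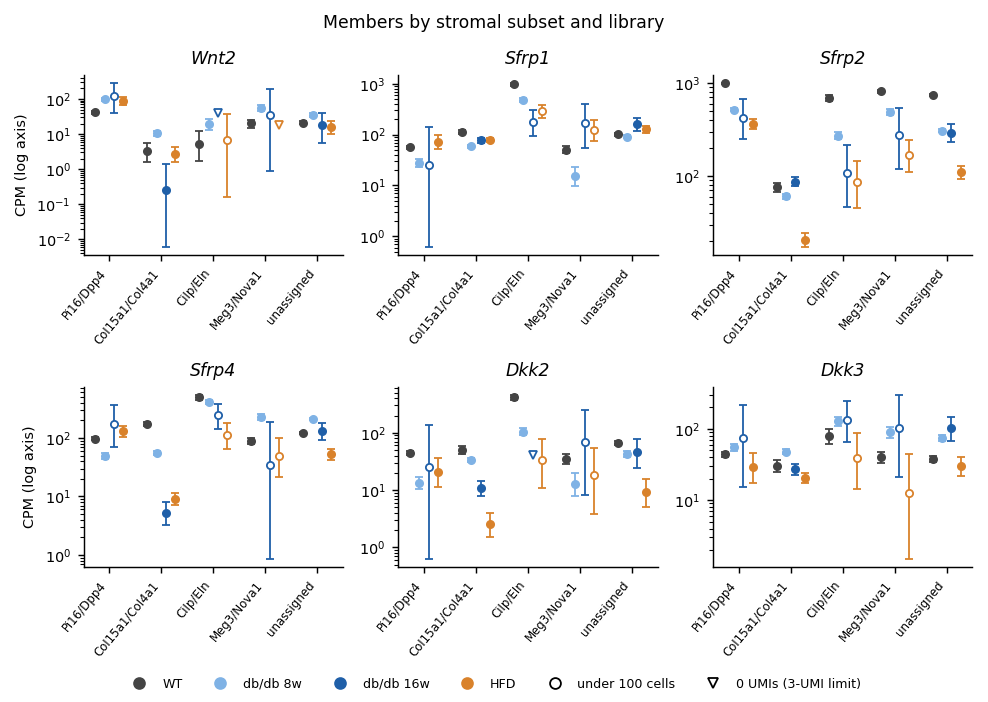
Level (CPM, log axis) of 6 members in 5 stromal subsets, 1 point per library with exact Poisson 95% intervals. Open circles mark fewer than 100 cells and open triangles the level of 3 UMIs where none was found. Wnt2 is high in Pi16/Dpp4 cells in all 4 libraries, and Sfrp4 in Col15a1/Col4a1 cells spans 174 CPM in WT to 5.21 CPM in 16-week db/db.

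Col15a1/Col4a1 cells were the named subset with at least 100 cells in all 4 libraries, and the count was repeated in them. Of 9 members, 5 passed the filter there (Sfrp1, Sfrp2, Sfrp4, Dkk2 and Dkk3). In 8-week db/db 1 was at least 2-fold lower (Sfrp4), against 2.2% of all genes tested in these cells. In 16-week db/db 2 were lower (Sfrp4 and Dkk2), against 11.5%, and in HFD 3 (Sfrp2, Sfrp4 and Dkk2), against 4.53%. None was at least 2-fold higher, against 6.94%, 14.3% and 12.4% of all genes. The median log2 ratio was -0.58, -0.54 and -1.87 for these members and 0.12, 0.06 and 0.19 for all genes.

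The likeness of each member with a mean of at least 20 CPM to all other genes was measured as Pearson's r of log2(CPM + 10) over 16 points, each a stromal subset of 1 library with at least 100 cells. The points of a library share its depth and preparation, so these are descriptions. Among 5940 genes, the 3 most alike to Sfrp1 were Abca8a (r = 0.94), Tmem47 (0.91) and Fxyd6 (0.89). For Sfrp2 they were Fndc1 (0.92), Twsg1 (0.91), a secreted modulator of BMP signalling, and Olfml2b (0.90). For Dkk2 they were Col4a5 (0.91), a chain of basement membrane collagen, Itm2a (0.90) and Sod3 (0.88), and for Sfrp4 Col4a5 (0.84), Thbs3 (0.84) and Fam102b (0.83). Dkk3 was most like Pkd1 (0.85), Ppp1r12c (0.83) and Thbs4 (0.82). Among members, r was 0.76 for Sfrp1 with Dkk2, 0.76 for Sfrp4 with Dkk2, and -0.46 for Wnt2 with Sfrp1.

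Other genes of the pathway were taken from a list of 78, ordered by role, of which 41 passed the filter in stromal-like cells. In 8-week db/db 0 were at least 2-fold higher and 2 lower, in 16-week db/db 4 higher and 7 lower, and in HFD 4 higher and 8 lower. These are 4.88%, 17.1% and 19.5% lower, against 2.37%, 14.5% and 6.74% of all genes, and the median log2 ratio of the 41 was -0.01, -0.11 and -0.01. The shares at least 2-fold higher were 9.76% in both 16-week db/db and HFD, against 12.5% and 10.7% of all genes. Genes of the list that are named below, other than Rspo3, Apcdd1 and the 10 of highest level, were chosen after their values were seen. All values of listed genes are sums over all stromal-like cells. A different makeup of these cells and a different level within them thus cannot be told apart. Levels by subset and ratios weighted as in WT were not computed for the listed genes.

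Of the 18 other ligands, 5 passed the filter. In sums over all stromal-like cells, 0, 3 and 5 of them were at least 2-fold lower in 8-week db/db, 16-week db/db and HFD, against 2.37%, 14.5% and 6.74% of all genes. The ligand Wnt2, a member, changed direction in 16-week db/db and HFD with subsets weighted as in WT. The mean used by the filter includes WT, so a ligand high in WT passes more readily than one low in WT. Wnt16 passed with a mean of 6.74 CPM and 13.0 CPM in WT. Wnt4, at 0.788 CPM in WT and 3.89 CPM (37 UMIs) in HFD, did not pass. The counts of lower ligands thus depend in part on the filter. Wnt5a, a ligand of the non-canonical branch, was at 119 CPM in WT, 63.6 in 8-week db/db, 48.1 in 16-week db/db and 56.0 in HFD, with log2 ratios of -0.90, -1.30 and -1.08. Wnt10b, a canonical ligand that restrains adipogenesis, was at 31.4, 22.1, 0.223 (1 UMI) and 4.31 CPM, and its log2 ratio in 16-week db/db was -7.13 (-12.44 to -4.65). Wnt16 went from 13.0 CPM in WT to 0.447 CPM (2 UMIs) in 16-week db/db (-4.87, -7.92 to -3.00) and 6.30 CPM in HFD. Wnt9a and Wnt11 were lower in HFD, by -1.08 (-1.51 to -0.69) and -2.17 (-2.50 to -1.86).

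Rspo3 and Apcdd1 alone were at least 2-fold lower in all 3 comparisons, among the 41 listed genes that passed the filter. The share of all genes lower in all 3 was not computed, and all 3 comparisons use the same WT library. Rspo3, an R-spondin that strengthens Wnt signals through LGR receptors, was at 56.6 CPM in WT, 24.95 in 8-week db/db, 1.12 (5 UMIs) in 16-week db/db and 7.88 in HFD. Apcdd1, a membrane-bound Wnt inhibitor, was at 19.9, 9.59, 1.12 (5 UMIs) and 5.46 CPM. Lgr4, a receptor of R-spondins, was at least 2-fold lower in HFD (-1.42, -1.76 to -1.10).

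Of 12 receptors that passed the filter, 0, 3 and 3 were at least 2-fold higher, against 6.32%, 12.5% and 10.7% of all genes, and none was lower, against 2.37%, 14.5% and 6.74%. The co-receptor gene Lrp5 was higher in 16-week db/db (1.87, 1.62 to 2.11) and in HFD (1.16, 0.94 to 1.39), as was Ror1, a receptor for WNT5A (1.05, 0.69 to 1.40, and 1.36, 1.11 to 1.61). Fzd3 was higher in 16-week db/db (1.08, 0.51 to 1.61) and Fzd1 in HFD (1.36, 1.24 to 1.47). Within the cell, Ctnnbip1, whose product keeps β-catenin from TCF factors, was at 22.6, 40.7, 66.8 and 55.5 CPM, at least 2-fold higher in 16-week db/db and HFD. By the rule of size the 10 genes with the highest mean level were Csnk1a1, Lrp6, Gsk3b, Wls, Tcf7l2, Ctnnb1, Ryk, Fzd4, Tcf7l1 and Fzd1, and apart from Fzd1 in HFD none of these was past 2-fold in any comparison. Ctnnb1, which encodes β-catenin, had log2 ratios of 0.13, -0.29 and 0.47, and those of Gsk3b, the kinase that marks it for degradation, lay between -0.02 and 0.07. Dvl1 and Tle3, which encode a relay of the receptor signal and a nuclear co-repressor, were at least 2-fold lower in 16-week db/db (-1.03 and -1.08).

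**Figure D5:**
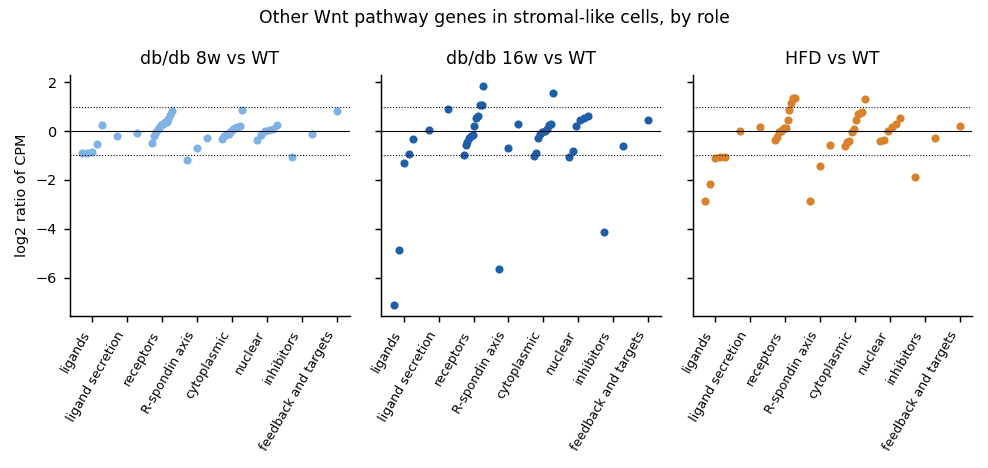
Log2 ratio of CPM in stromal-like cells against WT for the 41 other pathway genes that passed the filter, 1 point per gene, grouped by role, with dotted lines at 2-fold. The ligands and the R-spondin axis reach the lowest values, Wnt10b at -7.13 in 16-week db/db, and the receptors reach above 1.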

How the data were processed

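The authors deposited 4 filtered 10x Genomics 3′ matrices of raw UMI counts per gene and cell, aligned to mm10 with Cell Ranger, for which the submitters' processing notes give version 7.1.0 and the file header 6.0.0. Cells with 250 to 6000 genes, 500 to 30000 UMIs and under 15% mitochondrial UMIs were kept. A cell was given a lineage when 1 fixed marker list held at least 5 UMIs and at least 75% of its lineage marker UMIs, and a stromal subset when 1 list held at least 3 UMIs and more than 50%. No doublet caller was run, and mixed barcodes were set aside. UMIs were summed per library and class and expressed as CPM, and genes with a mean of at least 5 CPM over the 4 libraries were compared. A 0 was set to 3 UMIs, and genes with at most 3 UMIs in both libraries were left out. With 1 library per group no p-value was computed. The members and lists were chosen with earlier results of these data known. Genes were named by rule: all 9 members, pathway genes past 2-fold in 1 direction in all 3 comparisons, the 10 pathway genes of highest mean level, and the 3 genes most like each member. The other pathway genes named were chosen after their values were seen. Alternatives changed the gates, scaling, filter, added CPM and thinning depth. Python 3.11.15, numpy 2.4.6, scipy 1.17.1 and pandas 2.3.3 were used, and the counting steps were tested on simulated data.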

Additional observations from a re-analysis of the deposited data

Results flagged for a closer look

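Wnt2 in stromal-like cells went in opposite directions in the obese libraries, with log2 ratios to WT of 0.42 in 8-week db/db, -3.32 in 16-week db/db and -1.38 in HFD. Dkk3 likewise lay above WT in 8-week db/db (0.64) and below it in HFD (-0.82). The Wnt2 directions hold for the sums over all stromal-like cells. With subsets weighted as in WT the 3 Wnt2 ratios were 1.13, 1.12 and 0.60, and within Pi16/Dpp4 cells they were 1.24 in 8-week db/db and 1.07 in HFD. With 1 library per group these differences between comparisons were not tested.

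Axin2, which entered no count of members, was present outside the stromal-like cells. In immune cells other than macrophages it was at 12.6 CPM (5.04 to 25.9, 7 UMIs in 82 cells) in WT and 7.33 CPM (4.11 to 12.1, 15 UMIs in 493 cells) in 8-week db/db. In cells of 16-week db/db that no marker list claimed it was at 13.9 CPM (6.02 to 27.5, 8 UMIs in 582 cells). All 3 values were above the level of 3 UMIs in those cells.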

How the results depend on the processing

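The alternatives changed the mitochondrial limit, the lineage and subset gates, the scaling, the filter, the added CPM and the thinning depth. Of these, 2 were chosen after seeing the data: Col15a1/Col4a1 cells only, and a filter without 16-week db/db. With a stricter subset gate, 3488 stromal-like cells of WT were unassigned, against 1518 with the gate used. Subset levels then moved beyond their counting interval in 13 values for Sfrp2 and stayed in 3. For Sfrp4 12 moved and 4 stayed, for Wnt2 9 and 7, for Sfrp1 8 and 8, for Dkk2 6 and 10 and for Dkk3 4 and 12. Of detection shares at another thinning depth or none, 51 moved and 21 stayed. For counts of members, 89 recomputed values stayed within 1.5 times of the reported count and 7 did not. The 89 include each count of higher members that stayed at 0, as the reported count was 0 in every comparison. With subsets weighted as in WT, the count higher was 1 in 8-week db/db and 2 in 16-week db/db, and the count lower was 2, 1 and 2 in 8-week db/db, 16-week db/db and HFD. The share of all genes past 2-fold was not computed for this weighting. Without a filter 1 was higher in HFD, and in Col15a1/Col4a1 cells alone 2 were lower in 16-week db/db. The median log2 ratio in 8-week db/db was -0.29 as a mean of cells' CPM, -0.28 weighted as in WT, -0.33 with no filter and with a mean of at least 20 CPM, and -0.58 in Col15a1/Col4a1 cells. In 16-week db/db these medians were -1.90 as a mean of cells' CPM, -0.054 weighted, -1.59 with 10 CPM added and -0.54 in Col15a1/Col4a1 cells. In HFD they were -2.16 with a Pdgfra UMI required, -1.52 as a mean of cells' CPM, -0.63 weighted, -1.37 with 10 CPM added, -1.10 with no filter and -2.24 with at least 20 CPM. For single members, 221 recomputed ratios stayed within their counting interval, 57 moved beyond it and 4 that had been past 2-fold changed sign: weighted as in WT, Wnt2 was 1.12 in 16-week db/db and 0.60 in HFD and Sfrp4 0.024 in 16-week db/db, and in Col15a1/Col4a1 cells Sfrp2 was 0.21 in 16-week db/db. The weighting keeps the makeup of WT by construction, and in 16-week db/db it rests on 18 Pi16/Dpp4 cells. It also scales up 1 Has1/Ptx3 cell in 16-week db/db and 1 in HFD. Cilp/Eln cells numbered 26 and 36 and Meg3/Nova1 cells 19 and 32 in these libraries, so the weighted HFD values rest on thin subsets as well. Low counts limit Sfrp5, Wif1 and Axin2 in all libraries. No paired analysis was possible because each group was 1 library.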

Other observations

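Detection in the same cell was compared in stromal-like cells thinned to 2000 UMIs, as a description of single libraries whose cells are not replicates. In WT, cells with a Dkk2 UMI held a Sfrp1 UMI in 26.3% of cases (21.6% to 31.3%, 339 cells), against 12.6% (11.5% to 13.7%) of cells without Dkk2. In 8-week db/db these shares were 25.8% (20.6% to 31.5%, 264 cells) and 10.7% (9.75% to 11.7%). Cells with a Wnt2 UMI showed the opposite pattern, with Sfrp1 in 5.56% (2.70% to 9.98%, 180 cells) against 14.1% in WT, and in 5.49% (3.11% to 8.90%, 273 cells) against 12.0% in 8-week db/db. Sfrp2 was found in 70.6% (63.3% to 77.1%) of Wnt2-positive cells of WT, against 58.9% (57.3% to 60.5%) of the others, and in 39.6% (33.7% to 45.6%) against 26.4% (25.1% to 27.8%) in 8-week db/db. In the other libraries the shares were taken among cells with or without Sfrp1, and intervals overlapped. Dkk2 was found in 21 cells of 16-week db/db and 11 of HFD, and Wnt2 in 6 and 41. These few cells do not show whether the Sfrp1 patterns were present or absent there. In 16-week db/db, 1.68% (0.204% to 5.94%, 119 cells) of Sfrp1-positive cells held Dkk2, against 2.75% (1.66% to 4.26%) of the others. Wnt2 was in 0% (0% to 3.05%) of them, against 0.868% (0.319% to 1.88%). In HFD, 1.20% (0.247% to 3.45%, 251 cells) of Sfrp1-positive cells held Dkk2, against 0.575% (0.248% to 1.13%). Wnt2 was in 1.99% (0.65% to 4.59%) of them, against 2.59% (1.82% to 3.56%).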
